A study of Mus musculus with 9 samples.

Results

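Fragments of the mitochondrial histidine tRNA (mt-His-GTG, gene TrnH) were followed in the serum of mice in a study of atherosclerosis. They are the reads that aligned only to the mitochondrial reference with the anticodon GTG, each read name counted once. This gave 18109 reads of 816 distinct sequences, out of 555585 reads and 41240 sequences on all tRNA references, and 1 of 326 families when reads are summed by the amino acids and anticodons they met (precursor-only reads and reads shared by several families apart). The family was chosen because its fragments were much higher with SalB than on high fat diet alone, so its values with SalB below are descriptions without a test.

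The 3 groups, each with 3 small RNA libraries of blood serum at week 20, were high fat diet + SalB (called SalB here), high fat diet, and normal diet. SalB stands for salvianolic acid B, a phenolic compound from the root of Salvia miltiorrhiza (dose not stated in the labels). All 3 groups, normal diet included, carry the same unusual labels, a cell type of atherosclerosis and a genotype of week 20. Only the normal diet titles carry a strain name (C57), while the labels state no strain or genotype for the SalB and high fat diet mice. Diet and strain therefore cannot be told apart in comparisons with normal diet. Whether replicates are separate animals is not stated, so a p-value here reflects how far these samples spread, and that spread may be technical. In bulk serum, the number of cells that release a fragment and the amount released per cell cannot be told apart, and no cell type marker can be measured in files that hold tRNA reads alone.

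Mitochondria make their own tRNAs from their own DNA, and the histidine tRNA reads histidine codons on the mitochondrial ribosome. It is cut out of a long transcript of the heavy strand, the tail CCA is added to its 3′ end after transcription, and histidine tRNAs also receive an extra G at their 5′ end. Nucleases that cut in the anticodon loop leave a 5′ and a 3′ fragment of a tRNA, and such fragments circulate in blood. In RefSeq, with the build GRCm38.p6 (named mm10 in the submitters' processing notes), TrnH takes 67 bases at MT:11546-11612, 1 fewer than the 68 positions ahead of the tail in the reads, a difference that was not resolved. It lies between ND4 (MT:10167-11544), a subunit of respiratory complex I, and the serine tRNA gene TrnS2 (MT:11613-11671). The leucine tRNA gene TrnL2 (MT:11671-11741) and ND5 (MT:11742-13565), another subunit of complex I, follow.

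The sequences below show how 1 start position and a few last bases make up most of these reads. The first is the tRNA with its tail, as spelled by the reads without a mismatch, which cover positions 1 to 71. Capitals mark the anticodon at positions 31 to 33. Position 1 is the first base of the mature reference, which leaves out the extra 5′ G, and position 71 is the last base of the tail.
mt-His-GTG: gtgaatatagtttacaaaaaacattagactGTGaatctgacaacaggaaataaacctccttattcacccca

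The main 3′ fragments start at position 32, the second base of the anticodon, and are shown because they carry most of the reads. Capitals mark the bases of the CCA tail that each read holds, or the last base of reads that end before the tail.
32 to 71: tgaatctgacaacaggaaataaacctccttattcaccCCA
32 to 70: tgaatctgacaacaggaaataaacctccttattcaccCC
32 to 69: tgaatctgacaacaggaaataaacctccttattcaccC
32 to 68: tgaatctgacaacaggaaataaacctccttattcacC
32 to 61: tgaatctgacaacaggaaataaacctcctT
32 to 60: tgaatctgacaacaggaaataaacctccT

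The substituted forms among the tested sequences follow, with the substituted base in capitals. A token such as A71G gives the reference base, its position on the tRNA and the base read.
32 to 71, A71G: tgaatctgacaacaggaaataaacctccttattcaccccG
32 to 71, A71T: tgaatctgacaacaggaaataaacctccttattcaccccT
32 to 71, A71C: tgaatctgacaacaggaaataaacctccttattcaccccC
32 to 71, C68A: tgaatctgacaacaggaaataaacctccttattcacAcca
32 to 70, C70T: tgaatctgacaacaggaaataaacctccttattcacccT
32 to 70, C70A: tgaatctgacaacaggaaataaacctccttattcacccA
32 to 69, C69A: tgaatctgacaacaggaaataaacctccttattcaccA
32 to 68, C68T: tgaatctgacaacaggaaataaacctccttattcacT

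Reads on tRNA references numbered 40134 to 156333 in the SalB libraries, 28191 to 55465 on high fat diet and 31058 to 94724 on normal diet. SalB replicate 2 stood apart, with 65712 of its 156333 reads on the precursor of 1 leucine tRNA (Leu-CAG-3-1), and its scaling factor was 0.471 where the others ran from 0.917 to 1.21. These reads lower every share of tRNA reads in that library.

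mt-His-GTG took 10.4%, 3.60% and 10.9% of the tRNA reads in SalB replicates 1, 2 and 3. Its share was 0.663%, 0.624% and 0.599% on high fat diet, and 0.563%, 0.695% and 0.393% on normal diet. The counts behind these shares were 6455, 5626 and 4388 reads with SalB, 368, 176 and 266 on high fat diet, and 242, 216 and 372 on normal diet. All 3 SalB libraries lay above all other libraries, while the high fat diet and normal diet libraries overlapped. The same order of all SalB libraries above all high fat diet libraries was met by 29.1% of the 103 families abundant enough to be fitted, and that over all normal diet libraries by 23.3%.

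The 95% Wilson interval of the lowest SalB share ran from 3.51% to 3.69%, and that of the highest share outside SalB, normal diet replicate 2, from 0.609% to 0.794%. The reads carry no molecular identifiers, so intervals cover counting error only. Without the Leu-CAG-3-1 precursor reads, the share in SalB replicate 2 was 6.21%. Among mitochondrial tRNA reads alone, mt-His-GTG took 56.9%, 40.8% and 59.0% with SalB, against 18.7%, 13.9% and 15.5% on high fat diet and 14.8%, 16.5% and 12.9% on normal diet.

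Normalised CPM are read counts scaled by each library's kept reads and its trimmed-mean (TMM) factor. On this scale the family stood at 105178, 63773 and 103101 with SalB. It stood at 5901, 5517 and 5622 on high fat diet and 4993, 6461 and 4046 on normal diet. The fitted log2 fold change of SalB over high fat diet was 3.95 (SE 0.27), and that of SalB over normal diet was 4.11 (SE 0.27). Without SalB replicate 2 they were 4.19 and 4.42. Both comparisons share the SalB libraries.

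**Figure D1:**
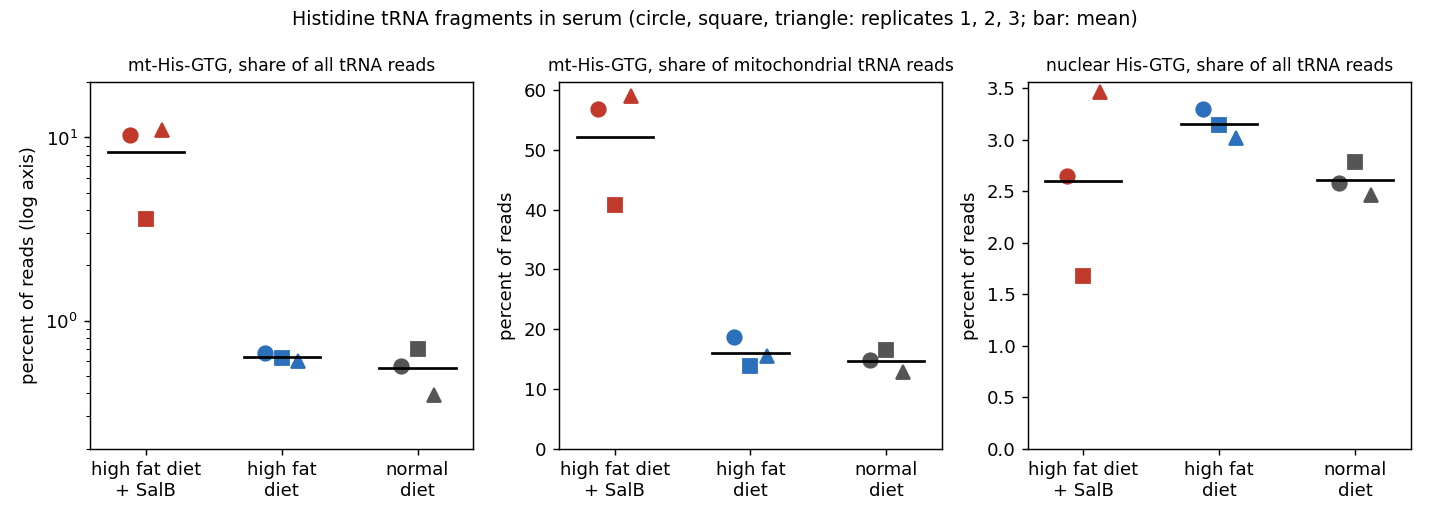
Share of mt-His-GTG in all tRNA reads (left, log axis in percent), share of mt-His-GTG in mitochondrial tRNA reads (middle, percent) and share of nuclear His-GTG in all tRNA reads (right, percent), with 1 point per library and the mean of 3 as a bar. SalB libraries stand at 3.60% to 10.9% for mt-His-GTG, above 0.599% to 0.663% on high fat diet and 0.393% to 0.695% on normal diet, while the nuclear histidine tRNA overlaps between SalB and the other groups.

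High fat diet was compared with normal diet, a contrast that was not used to choose mt-His-GTG. The family's log2 fold change was 0.16 (SE 0.30, 95% interval −0.51 to 0.84, limma-voom adjusted p = 0.915, n = 3 each), so a difference was not detected and the interval allows a change in either direction. Without normal diet replicate 3 the value was −0.0054. No tRNA family passed at an adjusted p under 0.05, a share of 0% of 103, and 6 had an unadjusted p under 0.05. Of the 816 mt-His-GTG sequences, 14 passed the filter on low counts, and only 3 would pass it on the high fat diet and normal diet libraries alone. limma-voom called 0 of the 14, as did limma on log2 values, and 0 of the 14 reached an unadjusted p under 0.05. Over all 733 tested fragments, 0% were called and 87 had an unadjusted p under 0.05. The log2 fold changes of the 14 ran from −0.32 (32 to 61) to 1.37 (32 to 69 with C69A), with a median of 0.26. This median is not set beside that of all fragments, since most of the 14 passed the filter through their SalB reads.

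The most abundant sequence, the unsubstituted read from 32 to 71, counted 3171, 2711 and 1889 reads with SalB. It counted 61, 20 and 36 reads on high fat diet and 40, 34 and 86 on normal diet. This 1 sequence made up 49.1%, 48.2% and 43.0% of the mt-His-GTG reads with SalB, against 16.6%, 11.4% and 13.5% on high fat diet and 16.5%, 15.7% and 23.1% on normal diet. The SalB libraries lay above all others in both counts and shares, an order met on the normalised scale by 25.0% of the 733 fragments over high fat diet and by 24.1% over normal diet. Sequences and families were scaled apart, so their CPM are not on 1 scale. The level of this sequence was 74285 ± 12379 CPM with SalB, 1094 ± 258 on high fat diet and 1257 ± 171 on normal diet (SD, n = 3 each). The log2 difference of high fat diet from normal diet was −0.19 (SE 0.32, limma-voom adjusted p = 0.824).

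When all sequences with the same start and end are summed, the difference was largest for reads that reach the last base of the tail, among the forms compared here. Reads from 32 to 71, 114 sequences in all, numbered 5210, 4074 and 2971 with SalB, 97, 36 and 59 on high fat diet, and 63, 59 and 104 on normal diet. Their level was 117402 ± 24775 CPM with SalB and 1817 ± 327 on high fat diet (SD, n = 3 each), a 64.6-fold ratio of means. Reads from 32 to 70, without the final A, numbered 810, 816 and 1066 with SalB, 52, 33 and 40 on high fat diet, and 41, 41 and 60 on normal diet. Their ratio of means was 21.7-fold.

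Reads that end 1 base further in, at 69, had a ratio of 2.79-fold of SalB over high fat diet. Reads from 32 to 68, which hold no base of the tail, numbered 52, 56 and 78 with SalB, 56, 17 and 35 on high fat diet, and 37, 25 and 29 on normal diet. Their level was 1897 ± 892 CPM with SalB, 1003 ± 262 on high fat diet and 837 ± 376 on normal diet (SD, n = 3 each), a 1.89-fold ratio of SalB over high fat diet. Reads from 32 to positions 57 to 65 numbered 167, 267 and 109 with SalB, 51, 30 and 42 on high fat diet, and 42, 44 and 63 on normal diet. Their ratio was 4.10-fold. Reads with any other start numbered 99, 334 and 93 with SalB, 84, 37 and 58 on high fat diet, and 39, 28 and 85 on normal diet, a ratio of 2.73-fold, or 1.81-fold without SalB replicate 2. For these other starts, all high fat diet libraries (1605 to 1892 CPM) lay above all normal diet libraries (1098 to 1194 CPM), and also as plain shares of tRNA reads (0.131% to 0.151% against 0.0897% to 0.0907%). This order was noticed after the values were seen and was not tested, and it was met by 11.6% of the 733 fragments.

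The size of these ratios depends on the scaling. As plain shares of tRNA reads, with no scaling factor, the ratios of SalB over high fat diet were 42.2 for 32 to 71, 14.9 for 32 to 70, 1.91 for 32 to 69, 1.31 for 32 to 68, 2.43 for ends 57 to 65 and 1.46 for other starts. The order of the forms that end at 71, 70, 69 and 68 was the same on both scales. The unsubstituted 32 to 68 read lost its direction, with a log2 fold change of 0.41 (SE 0.48) after scaling and −0.41 on plain library totals, a scale on which the median of all fragments also moved to −0.999 from −0.15.

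**Figure D2:**
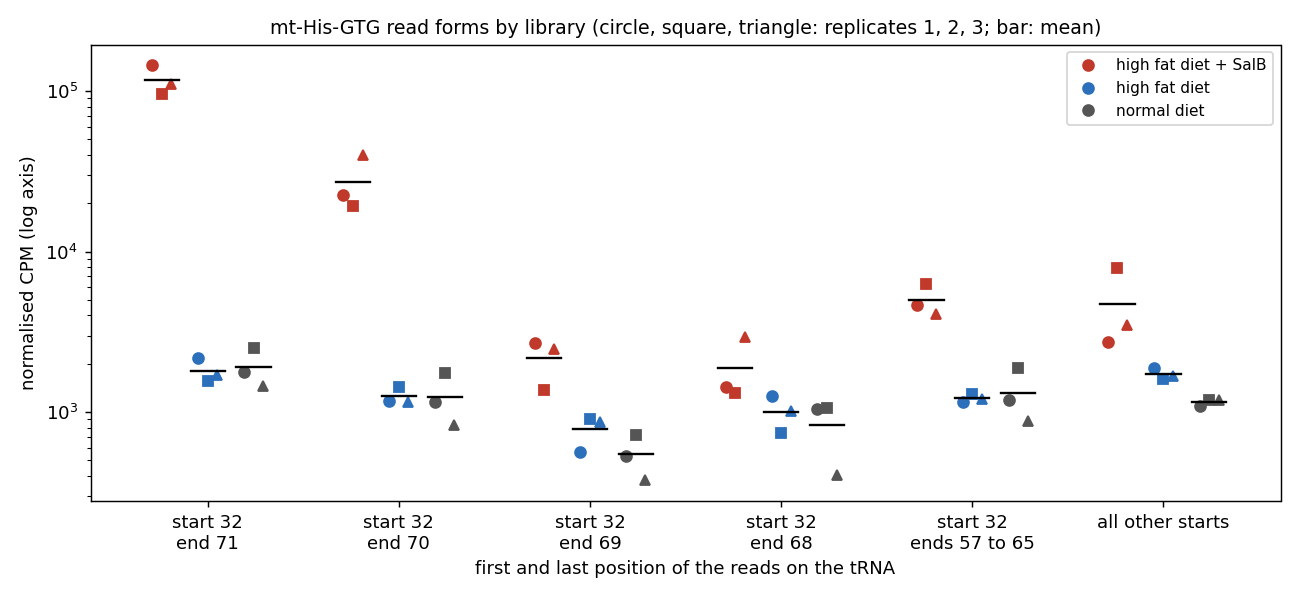
Normalised CPM (log axis) of mt-His-GTG reads grouped by first and last position, with 1 point per library, SalB, high fat diet and normal diet from left to right in each form and the mean of 3 as a bar. The gap between SalB and the other groups is widest for reads from 32 to 71, at 117402 CPM against 1817 on high fat diet and 1912 on normal diet, and small for reads from 32 to 68.

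Among the 14 tested sequences, fitted log2 fold changes of SalB over high fat diet ran from 0.41 to 7.13. Only 3 of the 14 would pass the filter on the high fat diet and normal diet libraries alone. Most are thus listed because of their SalB reads, and their values cannot be set beside those of all fragments. The sequences that end at 71 stood at 5.40 to 7.13 and those that end at 70 at 4.19 to 4.54. The reads from 32 to 69 stood at 1.23 unsubstituted and 1.17 with C69A, and the reads from 32 to 68 at 0.41 unsubstituted and 0.97 with C68T. The reads that stop at 60 and 61, well ahead of the tail, stood at 1.56 and 2.68. These 14 are not independent, since they share 1 start and most of their bases.

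The start of the reads was concentrated at position 32 in every library. It held 98.5%, 94.1% and 97.9% of mt-His-GTG reads with SalB, 77.2%, 79.0% and 78.2% on high fat diet, and 83.9%, 87.0% and 77.2% on normal diet. The SalB libraries were higher than all others, and the diets overlapped. Over all reads the next most common start was 16, with 28, 67 and 12 reads with SalB, 28, 15 and 14 on high fat diet, and 10, 4 and 17 on normal diet. In level, reads from 16 had a ratio of 1.67-fold of SalB over high fat diet after scaling, 1.09-fold without SalB replicate 2, and 0.871-fold as a plain share of tRNA reads, so their direction was not kept. Reads from 16 stood at 404 to 651 CPM on high fat diet and 171 to 281 CPM on normal diet, from 4 to 28 reads per library. The diets did not overlap, with a ratio of means of 2.45-fold, an order met by 11.6% of the 733 fragments. It was noticed after the values were seen and was not tested, and reads from 16 are part of the other starts above. Examples are shown for their span across the anticodon, in capitals.
16 to 48: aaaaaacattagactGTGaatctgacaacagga
16 to 50: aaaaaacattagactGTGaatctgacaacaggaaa

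The longest reads in the files have 40 bases, which is exactly the span from 32 to 71. A read that starts at 31 or earlier and reaches position 71 would need 41 bases or more and could not be seen, so the share at position 32 describes reads within this length limit. Reads that end at 57 to 69 are short enough for at least some earlier starts to be seen. Of these, 956 of 1062 started at 32 with SalB (90.02%), 311 of 355 on high fat diet (87.6%) and 308 of 350 on normal diet (88.0%), which lie close together. Reads of 40 bases made up 73.8 ± 6.53% of mt-His-GTG with SalB, 24.7 ± 2.65% on high fat diet and 27.9 ± 0.880% on normal diet (SD, n = 3 each). The median length was 40 in all SalB libraries and 38 in all others.

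Long reads among the other tRNA reads were more common in 2 of the 3 SalB libraries than in the rest. Reads of 39 and 40 bases made up 1.63%, 0.531% and 1.53% of tRNA reads outside mt-His-GTG with SalB, 0.926%, 0.946% and 0.976% on high fat diet, and 1.20%, 1.29% and 1.26% on normal diet. SalB replicates 1 and 3 were the highest of the 9 libraries. SalB replicate 2 was the lowest, but without the Leu-CAG-3-1 precursor reads its share was 0.941%, within the range of the high fat diet libraries, and replicates 1 and 3 then stood at 1.67% and 1.53%.

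The ends of the reads that start at 32 were then given as shares of these reads, which need not follow their levels. The share that reached 71 was 82.0%, 77.0% and 69.2% with SalB, against 34.2%, 25.9% and 28.4% on high fat diet and 31.03%, 31.4% and 36.2% on normal diet. The share that ended at 68 was 0.818%, 1.06% and 1.82% with SalB, against 19.7%, 12.2% and 16.8% on high fat diet and 18.2%, 13.3% and 10.1% on normal diet. For both ends, SalB did not overlap with either diet, and the diets overlapped with each other. A further small group of ends lay at 60, with 0.559% to 1.49% of these reads with SalB, 6.34% to 7.19% on high fat diet and 5.42% to 6.97% on normal diet.

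**Figure D3:**
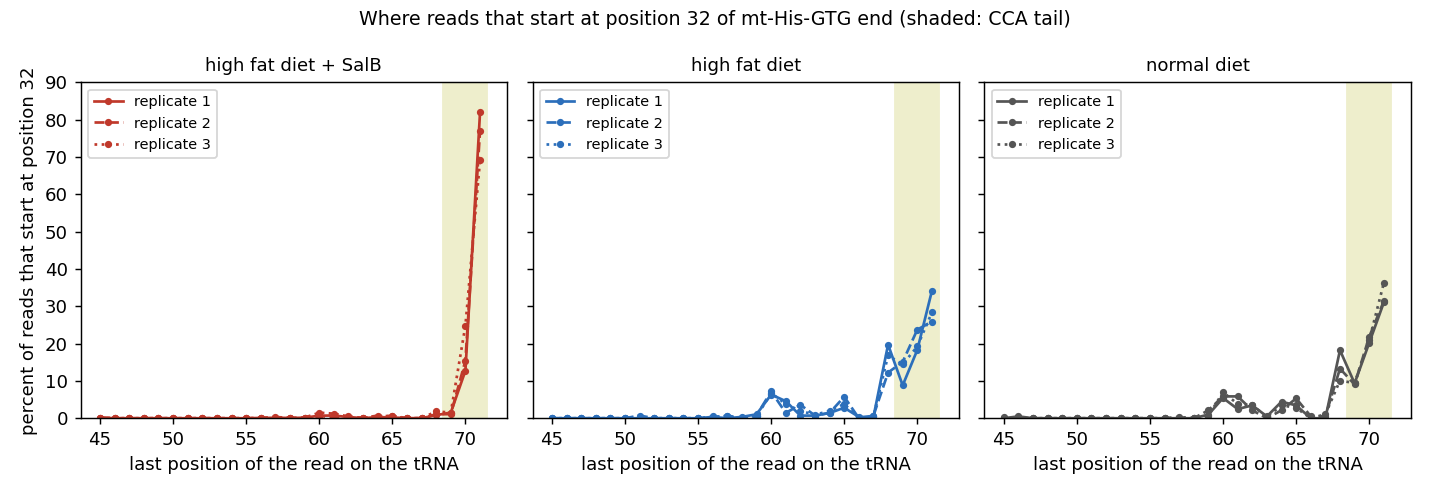
Percent of reads that start at position 32 (vertical axis) by their last position on the tRNA (horizontal axis), 1 line per library, with SalB on the left, high fat diet in the middle, normal diet on the right and the CCA tail shaded. Reads that reach 71 make up 69.2% to 82.0% with SalB, 25.9% to 34.2% on high fat diet and 31.03% to 36.2% on normal diet, and reads that end at 68 make up 0.818% to 1.82% with SalB, 12.2% to 19.7% on high fat diet and 10.1% to 18.2% on normal diet.

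Over all mt-His-GTG reads, those that end within the tail made up 92.1 ± 3.61% with SalB, 49.0 ± 1.97% on high fat diet and 52.5 ± 1.67% on normal diet (SD, n = 3 each). Those that neither start at 1 nor end within the tail made up 5.19% to 11.98% with SalB, 48.3% to 52.4% on high fat diet and 43.98% to 49.2% on normal diet. For high fat diet against normal diet, 9 measures of shape were tested by exact two-sided permutation over the 20 splits of 3 against 3 libraries, where the smallest possible p is 0.1. The smallest exact p was 0.2 (adjusted p = 0.36), met by the share ending at 71 (−4.37 percentage points), the share ending in the tail (−3.50), the share of 40 bases (−3.18), the share with a substituted last base (7.11) and the share neither at the start nor in the tail (3.44). With reads without a mismatch only, the diets did not overlap in the share starting at 32 (−7.84 points), the share ending in the tail (−7.12) and the share neither at the start nor in the tail (7.15), each with an exact permutation p of 0.1 (adjusted p = 0.3). The measures are not independent, since they are shares of the same reads and several count nearly the same reads or their complement. The design cannot reach 0.05, and so no difference of shape between the diets could have been called.

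The last base was often substituted. This was seen in 25.2 ± 1.92% of all mt-His-GTG reads with SalB, 31.4 ± 3.23% on high fat diet and 24.3 ± 4.21% on normal diet (SD, n = 3 each). A substitution elsewhere in the read was met in 14.6 ± 1.17% with SalB, 12.6 ± 1.60% on high fat diet and 16.1 ± 4.56% on normal diet. The files allow 1 mismatch per read, so a read with both kinds could not be seen.

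Among reads from 32 that end at 68 to 71, the mean share with a substituted last base was lowest at 71 and highest at 69 in every group. At 71 the share was 20.4 ± 2.17% with SalB, 18.7 ± 2.88% on high fat diet and 15.6 ± 7.36% on normal diet (SD, n = 3 each). At 70 it was 43.2 ± 6.33% with SalB, 45.6 ± 5.59% on high fat diet and 34.6 ± 8.19% on normal diet. At 69 it was 67.0 ± 11.7% with SalB, 62.6 ± 9.83% on high fat diet and 43.5 ± 10.6% on normal diet. At 68 the shares were 41.9 ± 8.34% with SalB, 29.5 ± 10.95% on high fat diet and 34.7 ± 13.2% on normal diet. At each of these ends the SalB libraries overlapped with the high fat diet libraries. At 69, all SalB libraries (56.1% to 79.4%) and all high fat diet libraries (52.4% to 72.0%) lay above all normal diet libraries (31.6% to 51.9%), from 17 to 97 reads per library. The diets were barely apart, with 11 of 21 reads in high fat diet replicate 2 and 14 of 27 in normal diet replicate 3. This order was not tested. At 68, 70 and 71 both diets overlapped with each other.

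**Figure D4:**
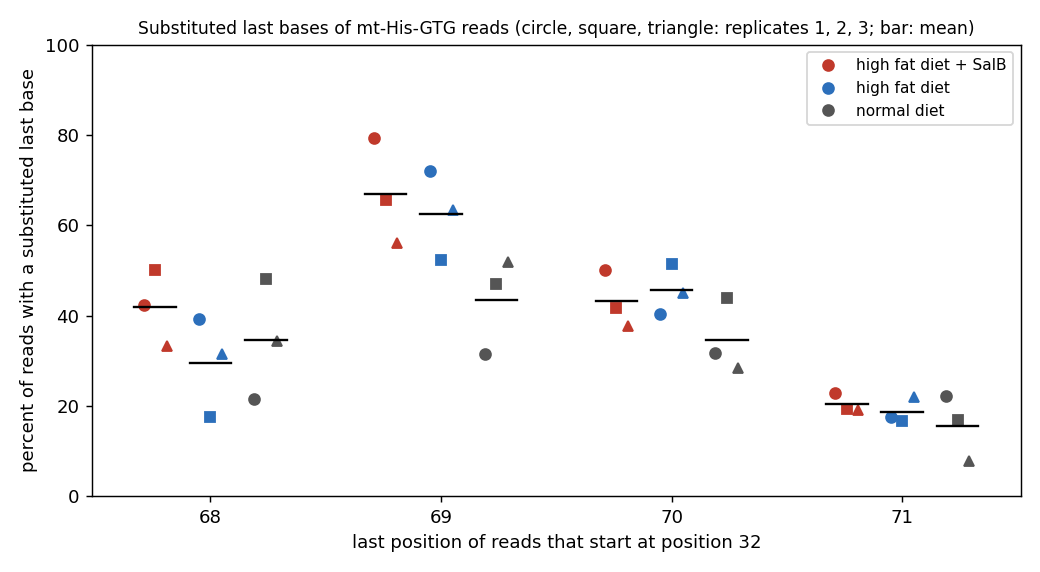
Percent of reads from position 32 whose last base is substituted (vertical axis) by last position (horizontal axis), with 1 point per library, SalB, high fat diet and normal diet from left to right at each end and the mean of 3 as a bar. The share is lowest at 71, at 20.4% with SalB, 18.7% on high fat diet and 15.6% on normal diet, highest at 69, and SalB and high fat diet overlap at all 4 ends.

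The base that took the place of the last one was not the same at each end. At 71, pooled over each group, A71G took 8.24% of reads with SalB (1010 of 12255), 4.17% on high fat diet (8 of 192) and 2.65% on normal diet (6 of 226). A71T took 6.81% with SalB, 6.77% on high fat diet and 3.98% on normal diet, and A71C took 5.69% with SalB, 7.81% on high fat diet and 7.52% on normal diet. By library, A71G ran from 6.43% to 9.08% with SalB, from 0% to 6.78% on high fat diet and from 1.69% to 3.17% on normal diet, so SalB overlapped with high fat diet and not with normal diet. At 70 the commonest was C70T, at 24.4% with SalB, 20.8% on high fat diet and 21.8% on normal diet. C70G was rare there, at 2.82% with SalB, 4.80% on high fat diet and 2.11% on normal diet.

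At 69 the commonest substitution was C69A, at 38.9% with SalB, 43.4% on high fat diet and 28.6% on normal diet. At 65 it was C65A, with 22 of 66 reads with SalB, 11 of 24 on high fat diet and 16 of 25 on normal diet, and no other substitution was met there except C65T in 3 SalB reads. A last base that differs from the reference cannot be told from a read that ended 1 base earlier and gained a base. C70A and C69A have the letters of a tail with bases missing ahead of its final A, as the printed sequences show.

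Inside the reads from 32 to 71, substitutions were much rarer. In SalB, where 12255 such reads give the depth, the median over the 39 positions ahead of the last was 0.294% of reads per position. Position 68 stood highest at 3.99%, followed by 70 at 1.80% and 32 at 0.898%. C68A accounted for 422 of the 12255 SalB reads (3.44%), for 6 of 192 on high fat diet and for 5 of 226 on normal diet. By library, C68A ran from 2.48% to 4.49% with SalB, from 0% to 8.33% on high fat diet and from 1.59% to 3.39% on normal diet, and the groups overlapped. C69A was met in 46 of 12255 SalB reads, 7 of 192 on high fat diet and 4 of 226 on normal diet. By library it ran from 0.288% to 0.442% with SalB, from 2.06% to 6.78% on high fat diet and from 0.962% to 3.39% on normal diet, so SalB lay below both diets, whose values rest on few reads. Position 68 is the base just ahead of the tail.

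Few reads that start at position 1 were seen in any group, with 1 mismatch allowed per read. Reads from position 1 numbered 1, 1 and 5 with SalB, 1, 1 and 6 on high fat diet, and 0, 4 and 4 on normal diet, in sum 7, 8 and 8. The groups overlapped, and in normalised level the ratio of means of SalB over high fat diet was 1.00. Of these 23 reads, 15 ended at 33, the last base of the anticodon, and 14 carried a substitution at position 9, a position that is methylated in many mitochondrial tRNAs of mammals. The commonest of them are shown for that position, in capitals.
1 to 33, A9G: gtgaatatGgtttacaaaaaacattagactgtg
1 to 33, A9T: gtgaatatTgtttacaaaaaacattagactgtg

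A further 46 reads carried an extra G ahead of position 1, the form that the mature histidine tRNA has. They aligned only to the precursor reference, as T40G on that reference, whose position 41 is position 1 of the mature reference. They are therefore outside the 18109 reads counted above. The added G takes up the 1 mismatch allowed, so a read that also had a substitution, as at position 9, could not be seen. They numbered 7, 2 and 9 with SalB, 5, 2 and 6 on high fat diet, and 4, 7 and 4 on normal diet, and 33 of the 46 ended at 33. The groups overlapped. The capital marks the added base.
Added G to 33: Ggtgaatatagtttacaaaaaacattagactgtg

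The nuclear histidine tRNA, which has the same anticodon, was compared as the nearest cytosolic counterpart. Its 14012 reads gave 26820, 29744 and 32683 CPM with SalB, 29280, 27773 and 28256 on high fat diet, and 22859, 25814 and 25351 on normal diet. SalB and high fat diet overlapped, with a log2 fold change of 0.06 (SE 0.16), which turned to −0.36 on plain library totals. In CPM, all SalB and all high fat diet libraries lay above all normal diet libraries. This order over normal diet was met by 23.3% of the 103 families for SalB and by 8.74% for high fat diet. As plain shares of tRNA reads, SalB (2.64%, 1.68% and 3.47%) overlapped with normal diet (2.58%, 2.78% and 2.46%), while high fat diet (3.01% to 3.29%) still lay above it. The log2 fold change of high fat diet over normal diet was 0.21 (SE 0.17, limma-voom adjusted p = 0.908). Over the 9 libraries, 3 of its 14012 reads started at the second base of the anticodon, where most mt-His-GTG reads start. A nuclear read from this base, position 35, to the last position, 75, would exceed the longest reads of 40 bases and could not be seen. The count therefore covers only nuclear reads from this base that end earlier. Reads that end within the CCA tail, complete or not, made up 28.8%, 15.2% and 15.4% of nuclear His-GTG with SalB. They made up 15.2%, 20.99% and 18.1% on high fat diet, and 23.8%, 26.2% and 17.2% on normal diet, and the groups overlapped.

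Of the other 21 mitochondrial tRNA families, 10 were abundant enough to be tested. For SalB against high fat diet, 2 of the 10 rose (limma-voom, adjusted p under 0.05) and 0 fell, beside 11.7% of the 103 families that rose and 14.6% that fell. The median log2 fold change of the 10 was 0.53, beside 0.19 over all families. Those that rose were mt-Ser-GCT at 1.95 and mt-Gly-TCC at 1.73, and both passed in all 18 settings tried. Without SalB replicate 2, 3 of the 10 rose, with mt-Thr-TGT as the further one. For high fat diet against normal diet, 0 of the 10 were called, beside 0% of all families.

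mt-Ser-GCT is the product of TrnS2, the neighbour of TrnH on its 3′ side. Its level was 43700, 69486 and 43374 CPM with SalB, 11882, 15172 and 13314 on high fat diet, and 9965, 12294 and 8689 on normal diet. All SalB libraries lay above all others, an order met over high fat diet by 29.1% of the 103 families and over normal diet by 23.3%. Unlike those of mt-His-GTG, the reads of mt-Ser-GCT came from the 5′ end. Of them, 95.7% started at position 1, and 1 of 10658 SalB reads ended within the CCA tail. mt-Leu-TAG, the product of TrnL2, had too few reads to be tested, with 46 in the SalB libraries, 11 on high fat diet and 11 on normal diet. Of these, 39, 9 and 6 ended within the CCA tail, complete or not. The tail was thus also the usual end of this neighbour's fragments, at low depth. This end was not particular to neighbours of mt-His-GTG, and its share varied among the other mitochondrial families. For mt-Trp-TCA it was met in 70 of 73 reads with SalB, 10 of 12 on high fat diet and 4 of 6 on normal diet. For mt-Gln-TTG it was met in 3 of 97, 6 of 62 and 4 of 46.

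By the root mean square difference of centred log2 levels over the 9 libraries, the 5 families most like mt-His-GTG were mt-Ser-GCT (0.990), Phe-GAA (1.09), mt-Gly-TCC (1.13), the precursor-only reads of Arg-ACG (1.22) and those of Gly-CCC (1.25). These distances are on the log2 scale, and none was near 0. Nuclear Phe-GAA averaged 1685 CPM with SalB, 434 on high fat diet and 521 on normal diet. The mt-Gly-TCC family counted 70 to 102 reads per SalB library and at most 23 on high fat diet. Its reads ended within the CCA tail, complete or not, in 123 of 244 cases with SalB (50.4%). This was met in 18 of 55 on high fat diet (32.7%) and 7 of 62 on normal diet (11.3%). These shares are pooled over libraries. By library the counts were 46 of 70, 38 of 102 and 39 of 72 with SalB. They were 3 of 18, 7 of 14 and 8 of 23 on high fat diet, and 2 of 19, 0 of 11 and 5 of 32 on normal diet. The SalB and high fat diet libraries thus overlapped in this share.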

How the data were processed

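Per the labels' protocols, serum RNA was extracted with TRIzol and prepared with a commercial tRNA fragment kit, and gel-selected libraries were run on an Illumina NextSeq. The submitters' processing notes name mm10 as the build and FastQC, cutadapt, Bowtie and edgeR as tools, without roles or versions. Each deposited file lists the Bowtie-style alignments of 1 library, with the authors' read count of each collapsed sequence inside its name, and with no score or count column of its own. The files hold forward-strand alignments of reads 14 to 40 bases long, each with 1 mismatch or none, so totals are tRNA reads and not whole libraries. The 1 read that also met mt-Tyr-GTA was left out.

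Reads were summed per sequence and per family. limma-voom (limma 3.58.1, R 4.3.3) was fitted over all 9 libraries, since there is no column of counts, with trimmed-mean (TMM) scaling of sequences and families apart. The filter asked for 10 reads at the median depth (44415) in 3 libraries and 15 reads in all, which kept 733 fragments and 103 families. Benjamini-Hochberg adjustment was at 0.05. The fit was tested on simulated data. Named sequences are those that passed the filter and the 2 most abundant per class, and named families are the genome neighbours, nuclear His-GTG and the 5 nearest profiles. The reads from 16, the reads with an added G, C69A inside longer reads, mt-Trp-TCA and mt-Gln-TTG were chosen after their values were seen. The members and lists were chosen with earlier results of these data known. Libraries of a group differed by more than sampling noise (chi-square per degree of freedom 2.77 to 54.0).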

Additional observations from a re-analysis of the deposited data

How the results depend on the processing

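Over the main setting and 17 alternatives (other scalings and filters, only the groups compared, the block, limma on log2 values, no Leu-CAG-3-1 precursor reads, each library left out), the family's log2 fold change was 3.55 to 4.19 for SalB over high fat diet and 3.79 to 4.42 for SalB over normal diet, lowest on total counts. For high fat diet against normal diet it ran from −0.0054 to 0.33 (limma adjusted p 0.616 to 0.997). It turned to −0.0054 without normal diet replicate 3, and with 1 library left out ran from −0.0054 to 0.33. The sequences called stayed at 0 in all 18 settings. The share of reads from position 1 (high fat diet minus normal diet, 0.056 percentage points) turned to −0.032 with mismatch-free reads only (a setting that also took the share starting at 32 to −7.84 from −4.58), −0.56 without high fat diet replicate 3 and −0.43 without normal diet replicate 1 (−0.56 to 0.49 with 1 library left out). The ratio for reads from 16, SalB over high fat diet, had a log2 of 0.74, which turned to −0.20 on total counts, an alternative added after the data were seen. With mitochondrial reads as the denominator, the mean share of mt-His-GTG was 52.2% with SalB, 16.03% on high fat diet and 14.7% on normal diet. With mismatch-free reads only it was 0.352% on high fat diet and 0.320% on normal diet. The cause of these shifts was not tested beyond the setting itself. Equal replicate numbers do not pair the libraries: correlations of deviations between same-numbered libraries ran from −0.32 to 0.15, and the best partner had the same number in 3 of 18 cases. With the replicate block the values were 3.95, 4.12 and 0.17 (limma adjusted p = 0.893), and 0 sequences were called. Depth limits the diets, which had 176 to 372 mt-His-GTG reads per library.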
